A study of Homo sapiens with 3 samples.

Results

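The MHC class I route was followed through 9 genes in TK-10 cells: HLA-B, HLA-C, HLA-E, HLA-F, B2M, TAP1, TAP2, PSMB8 and PSMB9. Their probes were taken by the RefSeq accession that the array design gives each probe, without regard to the values, and 13 of the 58201 probes that are not controls belonged to them. Of these 13 probes, 12 were well above background on all 3 arrays. The other is the second of the 2 TAP2 probes, which reached the detection limit on none of the arrays, with signals of 4.75, 7.76 and 4.64 on the vehicle, cordyceps and sunitinib arrays, and has no ratio here.

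TK-10 is an established human renal carcinoma line, and all results come from this line alone. Cells received 0.1% DMSO (vehicle), cordyceps at 750 μg/mL or sunitinib, a receptor tyrosine kinase inhibitor, at 10 μM, each for 48 h, and each condition was read on 1 single-colour array. The labels name cordyceps, whereas the study's methods name cordycepin, a nucleoside of that fungus, at another dose, so the condition is called by its label. The labels give DMSO for the vehicle array only, and a medium with 10 mM nicotinamide, 10 μM troglitazone, 16.7 μM zinc sulfate and 10% fetal bovine serum for all 3 conditions, vehicle included. No array was replicated, so no difference below has a test or a replicate SD, and both ratios share the vehicle array. In RNA from whole cultures, fewer cells of a type and less RNA per cell cannot be told apart.

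MHC class I molecules show fragments of a cell's own proteins to T cells and to natural killer cells. The proteasome cuts proteins into peptides, and in the immunoproteasome the subunits PSMB8 and PSMB9 take the place of constitutive ones. The TAP1 and TAP2 transporter carries the peptides into the endoplasmic reticulum, where they bind a heavy chain that is paired with the light chain, B2M, and type I and type II interferons are known inducers of nearly the whole route.

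On the cordyceps array, the peptide supply genes TAP1, TAP2, PSMB8 and PSMB9 were 1.47- to 1.83-fold above vehicle, while the 8 probes of the heavy and light chains ranged from 0.97-fold for B2M to 1.71-fold for the second HLA-F probe. On the sunitinib array the order was the other way round: the chain probes were 1.25- to 1.85-fold above vehicle after scaling to the 75th percentile, and the supply genes ranged from 0.73-fold for TAP2 to 1.28-fold for TAP1, although without scaling all 12 probes were lower than vehicle. None of the 12 probes passed 2-fold in either direction in either comparison. Over all probes compared, the share past 2-fold upwards was 3.6% on the cordyceps array and 8.08% on the sunitinib array, and the share past it downwards was 2.49% and 5.67%.

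Signals are the processed intensities of Feature Extraction in arbitrary units, and a ratio is the difference of log2 signals after each array's 75th percentile is subtracted. That percentile was 165 on the vehicle, 138 on the cordyceps and 78.2 on the sunitinib array, so a signal that is equal on all arrays has a positive ratio in both comparisons. A ratio carried a technical error of 0.20 to 0.21 (log2) for the member probes, from the error that the software assigns to each spot. The 95% technical limit was 0.40 to 0.42, which covers neither culture nor labelling. For the detected member probes that error was nearly proportional to the signal (2581 at 25811 and 14867 at 148665 on the vehicle array). The limit is thus close to a fixed cutoff. It does not come from the spread among spots, which for B2M was 0.03 to 0.04 beside an error of 0.14. Of 21600 probes measured on both arrays, 14.2% were past this limit upwards and 12.9% downwards on the cordyceps array; of 21623 on the sunitinib array, the shares were 25.6% and 19.8%. Signals of different probes depend on the probe and are not compared with each other.

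**Figure D1:**
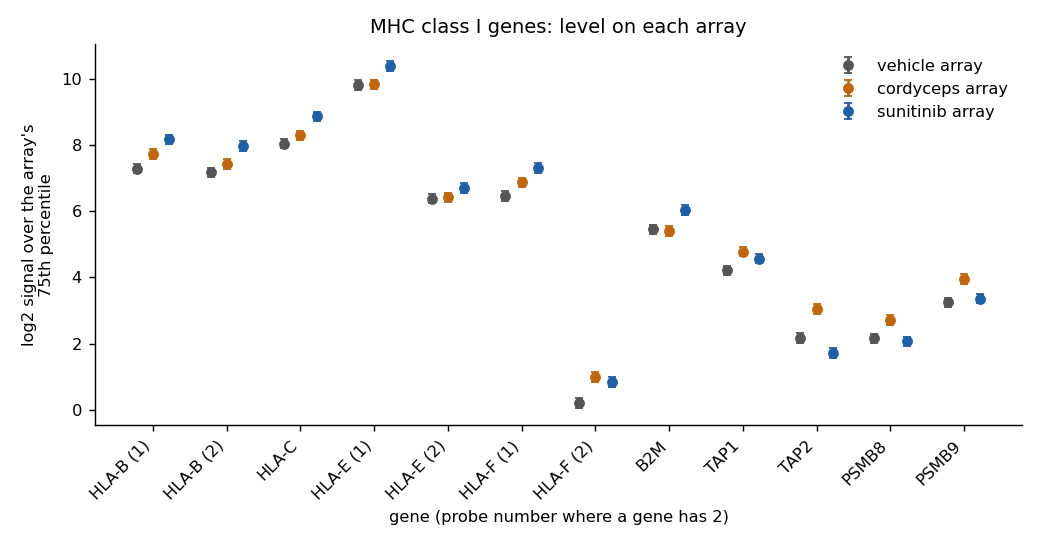
The vertical axis gives the log2 signal over the 75th percentile of the array for the 12 detected probes on the vehicle (grey), cordyceps (orange) and sunitinib (blue) arrays, with bars for 1 technical error. For TAP1, TAP2, PSMB8 and PSMB9 the orange point is the highest of the 3, and for HLA-B, HLA-C, HLA-E, the first HLA-F probe and B2M the blue point is, though without scaling vehicle or cordyceps is the highest for these. Heights may be compared within a probe but not between probes.

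HLA-B and HLA-C encode classical heavy chains, which hold the peptide, and HLA-C is also a main ligand of inhibitory receptors on natural killer cells. The first HLA-B probe gave a signal of 25811 on the vehicle, 29201 on the cordyceps and 22641 on the sunitinib array, and its log2 ratio to vehicle was 0.43 with cordyceps and 0.88 with sunitinib. The second HLA-B probe gave 23861, 23804 and 19708, for ratios of 0.25 and 0.80. Both probes placed sunitinib above cordyceps after scaling, and their ratios differed from each other by 0.18 with cordyceps and 0.09 with sunitinib, within the technical limit of such a difference (0.57). The HLA-C probe gave 43453, 43246 and 36625, for ratios of 0.25 and 0.83. Before scaling, the cordyceps signals of HLA-C and of the second HLA-B probe were slightly below those of vehicle. Only the first HLA-B probe was past the limit with cordyceps after scaling, while all 3 probes were past it with sunitinib. Without scaling, the sunitinib ratios of the 3 probes were below 0.

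The non-classical heavy chains are HLA-E, which presents leader peptides of other heavy chains to the NKG2A receptor of natural killer cells, and HLA-F, which is known to reach the surface in open form. HLA-E was read by 2 probes, with signals of 148665, 126104 and 104969 for the first and 13726, 11844 and 8173 for the second. Their ratios were 0.02 and 0.04 with cordyceps, and 0.57 and 0.33 with sunitinib. HLA-E was thus at its vehicle level relative to the 75th percentile on the cordyceps array by both probes, and past the limit by 1 probe of 2 on the sunitinib array. The 2 HLA-F probes match different RefSeq transcripts. The first gave 14587, 16205 and 12367, for ratios of 0.41 and 0.84. The second gave 190, 272 and 141, for ratios of 0.77 and 0.65. HLA-F was the only chain gene past the limit by each of its probes in both comparisons, and the first probe with cordyceps lay just beyond it (limit 0.40); in sunitinib both were below 0 without scaling.

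B2M encodes the light chain that pairs with class I heavy chains, and its probe is printed 10 times on the array. After software outliers were left out, 9 vehicle spots ran from 6892 to 7497 (median 7281), 9 cordyceps spots from 5675 to 6010 (median 5875) and 10 sunitinib spots from 4963 to 5368 (median 5160). The spot signals of the 3 arrays did not overlap, and the SD within an array was 0.03 to 0.04 on the log2 scale, which describes spots of 1 hybridisation and not cultures. After scaling, the ratio was -0.04 with cordyceps and 0.59 with sunitinib, against unscaled differences of -0.30 and -0.49. The spread among spots was therefore far smaller than the shift that scaling makes, and the direction with sunitinib rests on the scaling.

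**Figure D2:**
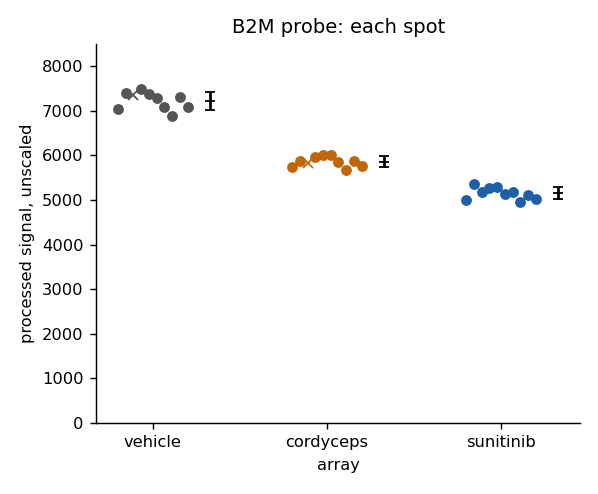
Each point is 1 of the 10 spots of the B2M probe on an array, crosses are spots left out as software outliers, and the black bar is the mean and SD of the spots used. The unscaled processed signal falls into 3 ranges that do not overlap, with vehicle highest and sunitinib lowest, whereas after scaling the sunitinib level is the highest.

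The 250 bases before the start of HLA-B, HLA-C and B2M are shown because all 3 hold a CCAAT box with its flank (CCAATCAG or, reversed, CTGATTGG), an interferon-type element and a match to the NF-κB consensus. They come from RefSeq on GRCh38.p14 and are written 5′ to 3′ in the direction of the gene, with each match to a motif in capitals.
HLA-B (chr6:31357180-31357429, minus strand): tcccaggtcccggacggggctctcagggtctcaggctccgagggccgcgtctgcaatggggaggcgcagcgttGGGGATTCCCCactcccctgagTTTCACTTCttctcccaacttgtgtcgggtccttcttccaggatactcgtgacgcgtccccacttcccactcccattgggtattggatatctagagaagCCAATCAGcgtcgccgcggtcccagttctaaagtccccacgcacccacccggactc
HLA-C (chr6:31272093-31272342, minus strand): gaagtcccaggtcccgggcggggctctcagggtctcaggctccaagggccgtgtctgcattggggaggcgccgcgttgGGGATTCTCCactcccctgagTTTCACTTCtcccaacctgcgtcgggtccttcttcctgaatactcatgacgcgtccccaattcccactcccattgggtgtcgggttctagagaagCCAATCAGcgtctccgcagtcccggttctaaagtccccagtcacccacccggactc
B2M (chr15:44711267-44711516, plus strand): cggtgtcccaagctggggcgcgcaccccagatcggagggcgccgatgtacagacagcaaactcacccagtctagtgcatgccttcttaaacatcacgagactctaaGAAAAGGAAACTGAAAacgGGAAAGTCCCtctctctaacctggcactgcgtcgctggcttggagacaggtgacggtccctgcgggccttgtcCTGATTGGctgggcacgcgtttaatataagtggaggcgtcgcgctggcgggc

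Motifs were searched on both strands. The full interferon element was written GAAANNGAAA, and 3.02% of 35116 promoters hold it in a window of this length. The short form, GAANNGAAA, was found in 6.56%, CCAATCAG in 3.81% and the NF-κB consensus in 9.96%. HLA-B and HLA-C hold the short form, on the other strand as TTTCACTTC, beginning 155 and 151 bases before the start. B2M holds the full form in 2 overlapping copies. The window of HLA-F has the full form and CCAATCAG. The window of HLA-E was not analysed here. A match is a run of letters, and binding was not measured.

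TAP1 and TAP2 encode the partner chains of the peptide transporter, and their genes lie in 1 cluster on chromosome 6 with PSMB8 and PSMB9. The TAP1 probe gave a signal of 3059 on the vehicle, 3797 on the cordyceps and 1856 on the sunitinib array, for ratios of 0.57 and 0.35. The detected TAP2 probe gave 740, 1133 and 256, for ratios of 0.87 and -0.46. The cordyceps signals were above vehicle for both even before scaling, and those on the sunitinib array were below it. TAP2 had the highest cordyceps ratio of the member probes, and 3.91% of probes measured on both arrays had a higher one. It was also the only member past the technical limit downwards with sunitinib, where 80.8% of probes had a higher ratio. Between the treated arrays TAP2 was 2.51-fold higher with cordyceps after scaling, beside 1.16-fold for TAP1.

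PSMB8 and PSMB9 encode catalytic subunits of the immunoproteasome, which favours peptides that fit the class I groove. The PSMB8 probe gave 735, 904 and 327 on the vehicle, cordyceps and sunitinib arrays, for ratios of 0.55 and -0.09. The PSMB9 probe gave 1559, 2142 and 803, for ratios of 0.71 and 0.12. Both were past the technical limit with cordyceps and within it with sunitinib. Of probes measured on both arrays, 9.94% had a higher cordyceps ratio than PSMB8 and 6.07% a higher one than PSMB9, so these ratios are in the upper part of the array without standing outside it.

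The windows before TAP1 and TAP2 are shown for their interferon elements, which differ in place and number between the 2 genes. The sources, strand rule and capitals are those given above, and TAP1 is shown for the upstream one of its 2 RefSeq starts, since the window of the other held no match to any of the motifs.
TAP1 (chr6:32853705-32853954, minus strand): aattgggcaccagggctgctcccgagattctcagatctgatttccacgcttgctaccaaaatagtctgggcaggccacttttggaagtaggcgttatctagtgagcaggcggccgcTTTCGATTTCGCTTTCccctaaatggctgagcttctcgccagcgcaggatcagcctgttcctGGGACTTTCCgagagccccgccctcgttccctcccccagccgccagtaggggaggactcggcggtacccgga
TAP2 (chr6:32838740-32838989, minus strand): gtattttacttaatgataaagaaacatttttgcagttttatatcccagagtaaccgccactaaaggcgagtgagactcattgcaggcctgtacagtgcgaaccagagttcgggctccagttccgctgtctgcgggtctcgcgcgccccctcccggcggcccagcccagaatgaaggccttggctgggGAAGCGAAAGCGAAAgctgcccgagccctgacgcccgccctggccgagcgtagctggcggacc

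TAP1 holds 2 overlapping full elements on the other strand, from 134 to 119 bases before the start, and an NF-κB match from 72 to 63 bases before it. TAP2 holds a full element at 58 to 49 bases and a short one that overlaps it, with no NF-κB match. The TAP1 window overlaps that of PSMB9, which runs in the other direction. None of these motifs was found in the PSMB9 window or in either of the 2 windows of PSMB8, which says only that these letters are not there.

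Set side by side by role, ratios were averaged over the detected probes of a gene and then over genes. The mean cordyceps ratio was 0.68 for the 4 supply genes and 0.23 for the 5 chain genes, a difference of 0.44. The mean sunitinib ratio was -0.02 and 0.69, a difference of -0.71. These groups were set after the values were seen and are a description. A single factor per array cancels from such a difference, which stayed between 0.44 and 0.47 with cordyceps and between -0.71 and -0.40 with sunitinib over all settings tried. The ranges of the groups overlapped: with cordyceps the second HLA-F probe (0.77) was above TAP1, PSMB8 and PSMB9, and with sunitinib TAP1 (0.35) was above the second HLA-E probe (0.33). With cordyceps all 4 supply probes and 3 of the 8 chain probes were past the technical limit upwards. With sunitinib 7 of the 8 chain probes were past it upwards after scaling, and of the supply probes only TAP2 was, downwards. Over all probes measured on both arrays, 14.2% were past it upwards with cordyceps. The shares with sunitinib were 25.6% upwards and 19.8% downwards.

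**Figure D3:**
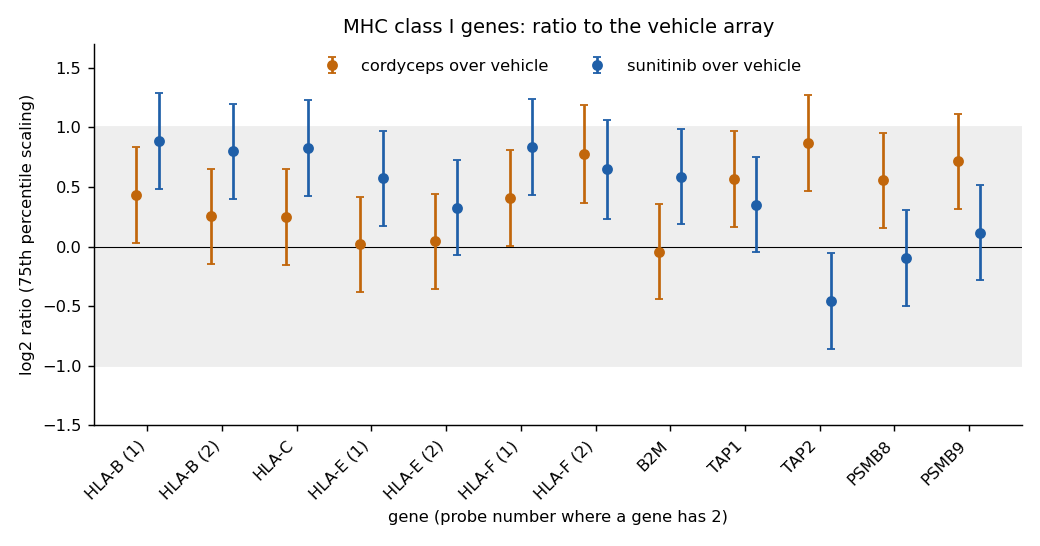
The vertical axis gives the log2 ratio to the vehicle array after scaling to the 75th percentile for the 12 detected probes, with cordyceps in orange and sunitinib in blue, bars for the 95% technical limit and a grey band for 2-fold. From HLA-B to B2M the blue points are higher with the exception of the second HLA-F probe, and from TAP1 to PSMB9 the orange points are higher, with no point beyond the band; without scaling every blue point is below 0.

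The groups also differ in brightness, which moved with the sunitinib ratio over all probes. Among probes with a vehicle signal of 10000 or more, the median sunitinib ratio was 0.27 (quartiles -0.21 and 0.73, 1086 probes), against -0.07 between 1000 and 10000 and -0.04 between 100 and 1000. Of the member probes, 6 of the chains lie in the brightest range, at 0.33 to 0.88. B2M and the second HLA-F probe lie in the lower ranges, with vehicle signals of 7215 and 190, at 0.59 and 0.65. The supply probes lie in the lower ranges too, at -0.46 to 0.35. With cordyceps the medians of the 3 ranges were 0.06, 0.02 and -0.05. The part of brightness in the sunitinib difference between the groups was not tested; under quantile normalization, which gives all arrays 1 distribution, it was -0.40 in place of -0.71.

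How far each direction depends on the scaling is seen in the numbers of member probes above and below vehicle. With cordyceps, 11 of 12 were higher and 1 lower; 12 were higher when arrays were set to the median, 9 under quantile normalization or normexp background correction, and 7 without scaling, where the 4 supply probes were still higher, at 0.30 to 0.62. With sunitinib, 10 were higher and 2 lower after 75th percentile scaling, 8 were higher with the median, 9 with quantile normalization and 7 with normexp, and none without scaling. Over all probes, median scaling moved the median ratio by 0.22 with cordyceps and by -0.33 with sunitinib, and leaving out the scaling moved it by -0.26 and -1.07.

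**Figure D4:**
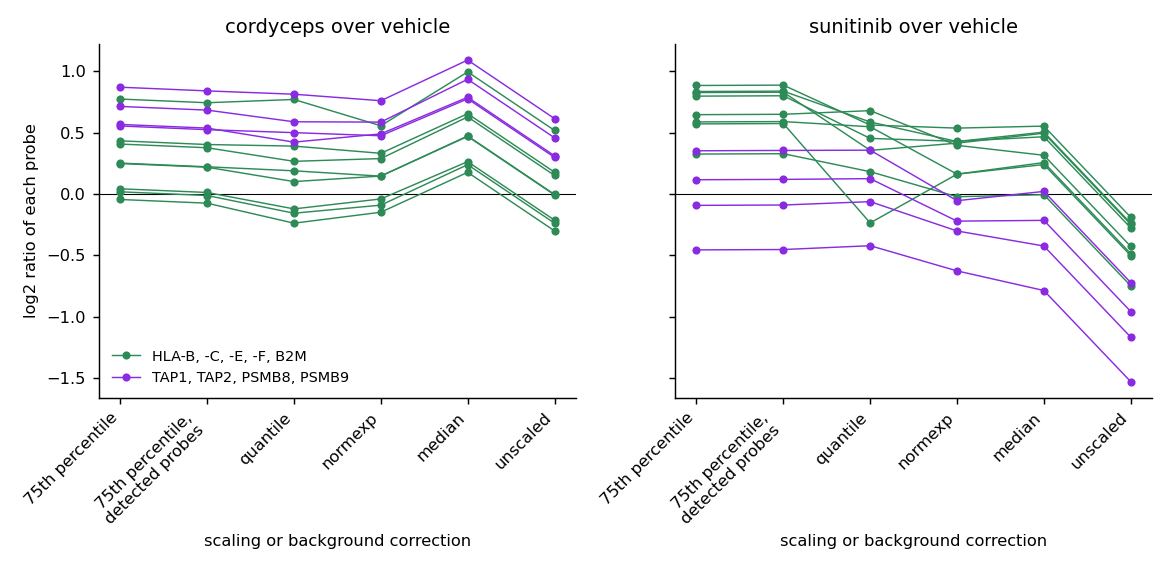
Each line is 1 of the 12 detected probes, green for HLA-B, HLA-C, HLA-E, HLA-F and B2M and violet for TAP1, TAP2, PSMB8 and PSMB9, and the vertical axis gives its log2 ratio to vehicle under 6 scalings or background corrections. With cordyceps (left) the violet lines are above 0 under each, down to 0.30 unscaled. With sunitinib (right) the green lines are mostly above 0 until the scaling is left out, where all 12 are below it, and HLA-E by its first probe is at -0.24 under quantile normalization.

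The other genes of the route were taken from 7 lists of 93 genes, of which 80 could be compared in each comparison. With cordyceps 2 of the 80 passed 2-fold upwards and 3 downwards, against 2.99% and 2.76% of all 14786 genes compared. With sunitinib 13 passed it upwards and 7 downwards, against 6.5% and 6.53% of 14912 genes, and without scaling 5 passed it upwards and 40 downwards. These are ratios after 75th percentile scaling, with a gene given by its brightest probe, and a gene whose bound against an undetected array is no larger than 1-fold stands at 0 in the medians.

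Other heavy chains and class I-like molecules had a median of 0.21 with cordyceps and 0.03 with sunitinib (9 genes). ULBP2, a stress-induced ligand of the NKG2D receptor, was 2.23-fold higher with cordyceps, at signals of 45.8 on the vehicle and 85.5 on the cordyceps array. HFE, a class I-like regulator of iron uptake, was at least 2.07-fold lower there, its cordyceps signal of 30.5 not being well above background. None of the 9 was past 2-fold with sunitinib. HLA-G, close to the classical genes in sequence, was at 0.28 with cordyceps and 0.55 with sunitinib. Heavy chain genes are near-identical over long stretches and the probe sequences were not used here, so the share of each heavy chain signal that comes from another HLA gene was not tested.

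Among 8 further proteasome genes the median was 0.36 with cordyceps, with 7 of 8 above 0 and none past 2-fold, and -0.49 with sunitinib, with 6 of 8 below 0. PSME2, a subunit of the interferon-induced PA28 activator, was the highest with cordyceps at 0.62 and stood at -0.57 with sunitinib. PSME3, the nuclear form of the activator, was the lowest with cordyceps at -0.28. POMP, the assembly chaperone of the proteasome, was 2.10-fold lower with sunitinib. The constitutive subunits that PSMB8 and PSMB9 replace, PSMB5 and PSMB6, were at 0.21 and 0.50 with cordyceps, and PSMB10 and its constitutive counterpart PSMB7 at 0.58 and 0.55. The inducible subunit thus exceeded its counterpart by 0.34, 0.21 and 0.04 in the 3 pairs, each within the technical limit of the difference (0.57). With sunitinib the differences were -0.34, 0.20 and -0.25, also within it. With cordyceps PSMB6, PSMB7 and PSMB10 were past the technical limit of a single ratio and PSMB5 was within it. No shift between inducible and constitutive subunits passed the technical limit of a difference.

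The 10 genes of peptide loading and trimming had medians of -0.12 with cordyceps and -0.03 with sunitinib. With cordyceps the list ran from -0.44 for CALR, the calreticulin chaperone, to 0.26 for CANX, calnexin. PDIA3, the disulfide isomerase of the loading complex, was 2.11-fold lower with sunitinib, and its other probe was lower as well (-1.21). TAPBP, which encodes tapasin, the bridge between TAP and the heavy chain, was at -0.10 and 0.23 by its brightest probe. Its 3 probes ran from -0.29 to 0.06 with cordyceps and from -0.19 to 0.23 with sunitinib. None of them had a cordyceps ratio as high as those of TAP1 and TAP2.

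Regulators of these genes had medians of -0.24 with cordyceps and 0.03 with sunitinib (17 genes). IRF1, a factor that binds interferon elements, had signals of 328, 361 and 62.0, which gave 0.40 with cordyceps and a 2.51-fold lower level with sunitinib. IRF9, the DNA-binding part of the type I interferon complex, was at -0.69 with cordyceps and 2.19-fold higher with sunitinib, at an unscaled signal of 397 on the vehicle and 412 on the sunitinib array. NFKB1 and SOCS1, a subunit of NF-κB and a feedback inhibitor of interferon signalling, were each 2.38-fold lower with sunitinib, and at -0.81 and -0.86 with cordyceps. NLRC5, the class I transactivator, was at 0.20 and 0.42, from signals of 50.3 to 78.9.

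The ligands IFNB1, IFNG and IFNL1 were undetected on all 3 arrays. Of 9 interferon receptors and kinases compared, none was past 2-fold with cordyceps, where JAK2 was the highest at 0.47 and IFNGR1, the ligand-binding chain for interferon gamma, the lowest at -0.78. With sunitinib IFNAR2, a chain of the type I receptor, was 2.10-fold lower by its brightest probe, though another probe was at -0.03, and IFNLR1, of the lambda receptor, was 2.06-fold lower.

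Interferon-induced genes outside antigen presentation made up most of the upward sunitinib calls, with 12 of 21 more than 2-fold higher, none more than 2-fold lower and a median of 1.09. IFITM1, a membrane protein that restricts virus entry, was 14.1-fold higher, IFIT1, which binds viral RNA, 9.97-fold, IFI44L 7.07-fold and MX1, an antiviral GTPase, 5.29-fold. These genes exceeded every member probe, of which none reached 2-fold. Before scaling, the IFITM1 signal was 82.4 on the vehicle and 550 on the sunitinib array. IFI44 (402 and 396), IFIT2 (319 and 322) and BST2 (89.6 and 95.9) were then close to vehicle. Over all 7 lists, 5 genes passed 2-fold upwards with sunitinib without scaling. With cordyceps the median of the 21 was 0.00, with IFIT3 2.02-fold higher and BST2, or tetherin, 2.25-fold lower by its brightest probe and at -0.08 by its other. MHC class II genes, which serve the separate route for ingested antigen, had no gene past 2-fold in either comparison. With cordyceps they ran from -0.69 for HLA-DPA1 to 0.11 for HLA-DPB1, and with sunitinib from -0.92 for HLA-DPA1 to 0.46 for HLA-DMA. The other HLA-DPA1 probe was at -0.36 with cordyceps and 0.28 with sunitinib, and the other HLA-DMA probe at 0.72 with sunitinib. HLA-DRA and the transactivator CIITA were not well above background.

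**Figure D5:**
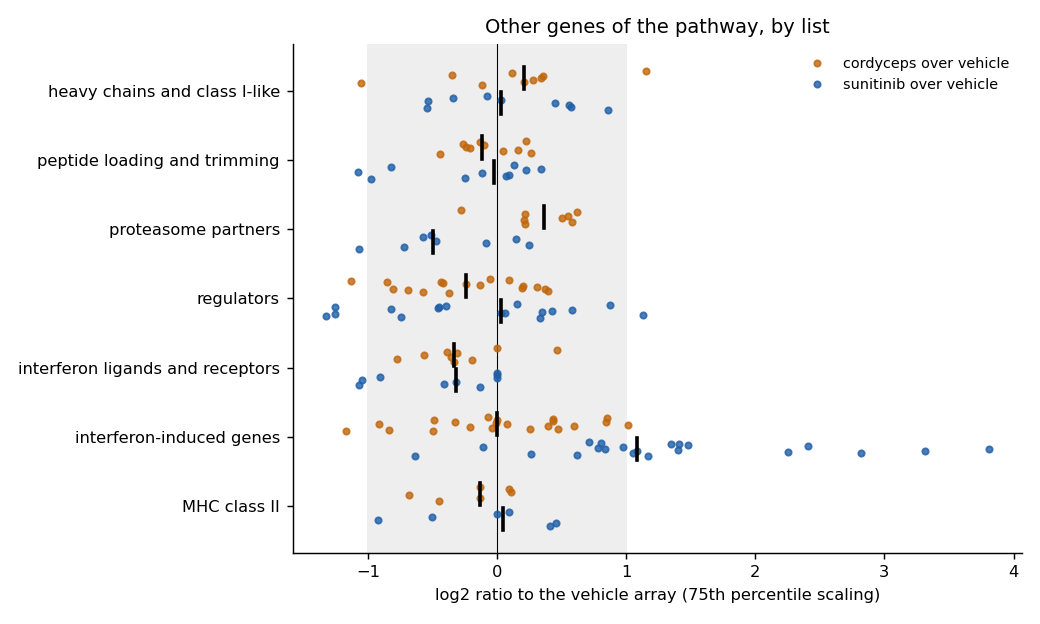
Each point is a gene of the list named at the left, by its brightest probe, the horizontal axis gives the log2 ratio to vehicle after 75th percentile scaling, black bars are medians, and the grey band marks 2-fold. Bounds are drawn at their value, or at 0 where no larger than 1-fold. The interferon-induced genes with sunitinib (blue) extend to 3.81 with a median of 1.09, and the proteasome partners lie mostly right of 0 with cordyceps (orange, median 0.36) and mostly left of it with sunitinib (median -0.49).

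The arrays held 58201 probes each, of which 45.5% were well above background with vehicle, 37.8% with cordyceps and 38.3% with sunitinib, and no spot was saturated. A bright streak of 563 spots on the cordyceps array held none of the 22 member spots. Of 7 renal epithelial markers on the array, 6 were detected on each array, CDH1 being the exception. Of 7 leukocyte markers, 3, 1 and 2 were detected on the vehicle, cordyceps and sunitinib arrays, with a summed signal of 829, 437 and 209, mostly CD14 (693, 374 and 116), while CD3E and MS4A1 were not detected. The 3 endothelial markers summed to 209, 160 and 79.6, with PECAM1 not detected, and the 3 fibroblast markers, all detected, to 6721, 1759 and 948, largely COL1A1. The renal epithelial markers summed to 48567, 38690 and 28434. All 4 unscaled sums were lower on both treated arrays, as was the 75th percentile, and their part in the member ratios was not tested.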

How the data were processed

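Total RNA of TK-10 cells was labelled with Cy3 and hybridised to 3 arrays, 1 per condition, so samples were grouped by the agent in their labels. The authors deposited Feature Extraction 11.5.1.1 output, in which the processed signal is an intensity on a linear scale, background-subtracted and detrended, with the array design on hg19. They also deposited a table of unscaled values, 99.87% to 99.92% of which were equal, within 0.01%, to the averaged processed intensity of a probe. The study's methods describe another array and a two-channel ratio, from which the 2-fold limit alone was used.

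Control and outlier spots were left out, spots of a probe averaged, and log2 signals taken relative to the 75th percentile of each array. A probe was compared where either array of a comparison detected it, that is, well above background by the software's flag, and an undetected side gave a bound from the lowest detected signal. Probes were named through RefSeq tables of GRCh38.p14, with which 31104 probes received a gene. The technical limit is 1.96 times the combined error of the processed signals. The members and lists were chosen with earlier results of these data known. All members were named, with the genes of each list past 2-fold or, where there were more than 4, the 4 largest, and the highest and lowest where none was; HLA-G, CALR and CANX with cordyceps, TAPBP, NLRC5, PSMB5, PSMB6, PSMB7, PSMB10 and undetected genes were added after their values were seen. Some genes of the lists are counted but not reported here by name. Normalization alternatives used limma 3.58.1 (normexp offset 50, quantile) in R 4.3.3, and the rest Python 3.11.15 with numpy 2.4.6 and pandas 2.3.3. The steps were tested on simulated data with planted changes beyond 2-fold only. Recovery of ratios as small as those of the members was not tested. The number of arrays limits the precision, and no test across arrays was possible.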

Additional observations from a re-analysis of the deposited data

How the results depend on the processing

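The count of member probes past 2-fold stayed at 0 with each setting except 3: median scaling put 1 probe higher with cordyceps, no filter on dim probes put 1 higher with sunitinib (the undetected TAP2 probe), and unscaled values put 2 lower with sunitinib. The median member ratio with cordyceps (0.42) was 0.64 after median scaling and 0.16 unscaled. With sunitinib (0.58) it was 0.25 after median scaling, 0.36 after quantile normalization, 0.16 with normexp and -0.49 unscaled. The supply minus chain difference with sunitinib (-0.71) was -0.40 after quantile normalization; this result was added after the values were seen. Pathway genes more than 2-fold higher with cordyceps (2) were 4 with median scaling, 1 with the percentile over detected probes, 0 unscaled and 0 with normexp, and those lower (3) were 0 with median scaling, 8 unscaled and 1 with normexp. With sunitinib those higher (13) were 5 unscaled, 5 with normexp and 20 with no filter, and those lower (7) were 14 with median scaling and 40 unscaled. Over all probes past 2-fold, the share that was higher was 59.1% with cordyceps and 58.7% with sunitinib, against 79.8% and 28.3% with median scaling, 31.6% and 3.07% unscaled, and 69.7% and 88.6% with no filter; with normexp it was 61.9% and 40.8%. Of the probe ratios under other settings, 127 moved by less than the technical error and 65 by more. The causes were not tested. No paired analysis was possible because each condition has 1 array, and no array could be left out for the same reason. Dim probes set the limit of detection, from 18.2 to 30.2 in signal.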
